A study of Mus musculus with 6 samples.

Results

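The genes that make, store, recapture and break down dopamine were followed in RNA from the striatum of young mice whose fathers had been given methylphenidate or saline. They are 9 genes, Th, Ddc, Gch1, Pts, Slc18a2, Slc6a3, Maoa, Maob and Nr4a2, a set given by symbol and read from a table of 45777 genes, with no expression value in the rule that names them. The methylphenidate-sired group holds 3 offspring of ICR males that received 15 mg/kg methylphenidate under the skin daily for 21 days from 6 weeks of age. The saline-sired group holds 3 offspring of ICR males given 10 mL/kg saline on the same schedule. ICR is an outbred mouse stock, both sets of sires were mated with females that had received no drug, and the offspring were 6 weeks old when the striatum was collected. Per the labels, each group has 2 females and 1 male, and no treatment of the offspring themselves is described. The sources used here do not give the numbers of sires and litters. The p-values therefore measure spread between these samples alone, some of which may share a father or a litter.

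Dopamine is made from tyrosine by tyrosine hydroxylase (Th), which needs tetrahydrobiopterin, and then by dopa decarboxylase (Ddc). Slc18a2 (the vesicular transporter VMAT2) loads dopamine into vesicles, Slc6a3 (the dopamine transporter, which methylphenidate blocks) takes it back into the terminal, and the monoamine oxidases Maoa and Maob break it down. The neurons that release dopamine into the striatum have their cell bodies in the midbrain, so most of their RNA lies outside the dissected tissue, while the monoamine oxidases are made by many cell types of the striatum itself.

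Of the 9 genes 8 had enough counts to be tested, and 0 of them passed the test (edgeR, adjusted p under 0.05), which 0.0224% of all genes tested passed; Th had the lowest p of the 8. Th averaged 4.64 ± 0.654 CPM (counts scaled to library size) in methylphenidate-sired striatum and 6.29 ± 0.899 CPM in saline-sired striatum (SD, n = 3 each), and its groups did not overlap. Ddc, Slc18a2 and Maob also had lower means in methylphenidate-sired libraries, Gch1 and Nr4a2 had higher ones, and Maoa and Pts were close to level, but in all of these the groups overlapped. Slc6a3 had at most 10 counts in any library. Among the 8 genes tested the widest spread was that of Nr4a2, which differed 8.34-fold between the highest and the lowest library, both of them saline-sired.

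Libraries are named by group and by the number in the table's column (2, 4 and 6 in the methylphenidate-sired group, 3, 4 and 5 in the saline-sired group), which cannot be tied to particular labelled animals. Total counts lay between 31360042 and 38844724 per library. Markers of medium spiny neurons, the principal cells of the striatum, were abundant, with a summed level of 10625 to 11977 CPM over 14 genes in methylphenidate-sired libraries and 12717 to 13443 CPM in saline-sired libraries. None of the 14 passed the test, and in 11 of them the groups did not overlap, with the lower values in methylphenidate-sired libraries, while 14.8% of all genes tested had non-overlapping groups in either direction. Both groups also held cortical excitatory neuron markers, and 2 saline-sired libraries stood apart. Library 3 did so by choroid plexus markers (2163 CPM summed). Library 4 did so by few cortical markers, by choroid plexus markers to a lesser degree (388 CPM), and by the highest oligodendrocyte markers (14430 CPM summed). Values of these markers are given beside the genes they moved with. Leaving both libraries out is among the alternatives tried, chosen after seeing the data. Y-linked transcripts (summed over 4 genes) were at 176 CPM in methylphenidate-sired library 4 and 180 CPM in saline-sired library 4, and at or under 0.213 CPM in the other libraries, which matches the labels' 1 male per group.

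Promoter sequences are shown for the 3 genes that hold one of the 2 searched motifs of 8 bases. RefSeq windows of 300 bases (250 before the annotated start and 50 from it on) were available for 8 of the 9 genes, with 9 windows because Ddc has an upstream and a downstream start. They are on build GRCm38.p6 and printed 5′ to 3′ on the gene's strand. Capitals mark the cyclic AMP response element TGACGTCA in Th and Slc18a2, and in Ddc the letters TGACCTTT, which are the NR4A-binding element AAAGGTCA (the NBRE) read on the other strand.
Th promoter, chr7:142899946-142900245, minus strand: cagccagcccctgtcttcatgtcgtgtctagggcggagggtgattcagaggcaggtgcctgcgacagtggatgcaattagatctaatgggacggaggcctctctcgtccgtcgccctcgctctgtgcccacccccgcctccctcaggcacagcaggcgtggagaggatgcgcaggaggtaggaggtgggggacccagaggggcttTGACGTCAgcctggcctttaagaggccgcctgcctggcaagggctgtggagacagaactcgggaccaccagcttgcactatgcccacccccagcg
Slc18a2 promoter, chr19:59260628-59260927, plus strand: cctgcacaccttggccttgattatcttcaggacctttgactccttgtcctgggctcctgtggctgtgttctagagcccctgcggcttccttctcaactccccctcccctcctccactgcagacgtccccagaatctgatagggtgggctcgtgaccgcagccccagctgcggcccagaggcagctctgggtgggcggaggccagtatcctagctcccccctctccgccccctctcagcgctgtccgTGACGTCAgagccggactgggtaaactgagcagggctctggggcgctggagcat
Ddc upstream promoter, chr11:11898095-11898394, minus strand: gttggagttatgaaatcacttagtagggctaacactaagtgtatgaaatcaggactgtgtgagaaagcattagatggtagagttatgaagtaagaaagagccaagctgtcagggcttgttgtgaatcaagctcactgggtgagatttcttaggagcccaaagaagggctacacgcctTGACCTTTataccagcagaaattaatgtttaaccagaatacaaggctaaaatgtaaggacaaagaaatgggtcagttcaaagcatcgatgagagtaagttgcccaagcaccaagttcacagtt
The element in Th begins at -45 from the annotated start, and the one in Slc18a2 begins at -4 and spans the start. Of all 32851 promoter windows in the table, 588 (1.79%) hold TGACGTCA on either strand, against 2 of the 9 windows here. The element in the Ddc window begins at -73 and overlaps TTTATA, the TATA motif TATAAA read on the other strand, at -68. AAAGGTCA on either strand is in 495 of all windows (1.51%). The first 5 bases of the cyclic AMP response element, TGACG, searched alone on either strand and so also found within the whole element, were found in windows of 5 genes (Th, Slc18a2, Maoa, Gch1 and Nr4a2) and in 20.8% of all windows, and TATAAA on either strand in Ddc, Gch1 and Nr4a2 and in 13.6% of all windows. The windows of Slc6a3, Maoa, Gch1, Pts and Nr4a2 held neither 8-base element, and these matches describe letters, not occupied sites.

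Th (Gene ID 21823, chromosome 7, 142892779 to 142899995, minus strand) encodes the rate-limiting enzyme of dopamine synthesis. It had 175, 146 and 136 counts in methylphenidate-sired libraries 2, 4 and 6, against 288, 174 and 192 counts in saline-sired libraries 3, 4 and 5. Scaled to library size these were 5.33, 4.57 and 4.02 CPM in methylphenidate-sired libraries and 7.25, 5.46 and 6.16 CPM in saline-sired libraries. The highest methylphenidate-sired library lay just under the lowest saline-sired one, and saline-sired library 3 was highest of all. The log2 fold change, methylphenidate-sired minus saline-sired here and throughout, was -0.44 (SE 0.17, 95% interval -0.84 to -0.04), with an unadjusted p of 0.0336 and an adjusted p of 0.503 (edgeR quasi-likelihood test, Benjamini-Hochberg over 17874 genes). Of all genes tested, 9.02% had an unadjusted p under 0.05, and 7.01% had non-overlapping groups with lower values in methylphenidate-sired libraries, so a result like that of Th was common in the table. Without saline-sired library 3 the log2 fold change of Th was -0.33 (edgeR unadjusted p = 0.111).

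Ddc (Gene ID 13195, chromosome 11, 11814101 to 11898144, minus strand) encodes the enzyme that converts L-DOPA to dopamine and also serves serotonin synthesis. Its level was 5.02, 5.41 and 3.58 CPM in methylphenidate-sired libraries 2, 4 and 6, against 4.58, 7.60 and 5.97 CPM in saline-sired libraries 3, 4 and 5. Methylphenidate-sired library 6 was lowest and saline-sired library 4 highest, with the other 4 libraries intermingled. The log2 fold change was -0.37 (SE 0.23, 95% interval -0.90 to 0.16, edgeR adjusted p = 0.670), and it was -0.17 without saline-sired library 4 and -0.06 with cortical marker level as covariate. Counts of Ddc per 100 counts of Th were 94.3, 119 and 89.0 in methylphenidate-sired libraries, against 63.2, 139 and 96.9 in saline-sired libraries. The pair of synthesis enzymes therefore did not keep 1 ratio across libraries: saline-sired library 3 was highest in Th but second lowest in Ddc. In bulk tissue, fewer cells or terminals holding a transcript and less of it in each cannot be told apart.

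**Figure D1:**
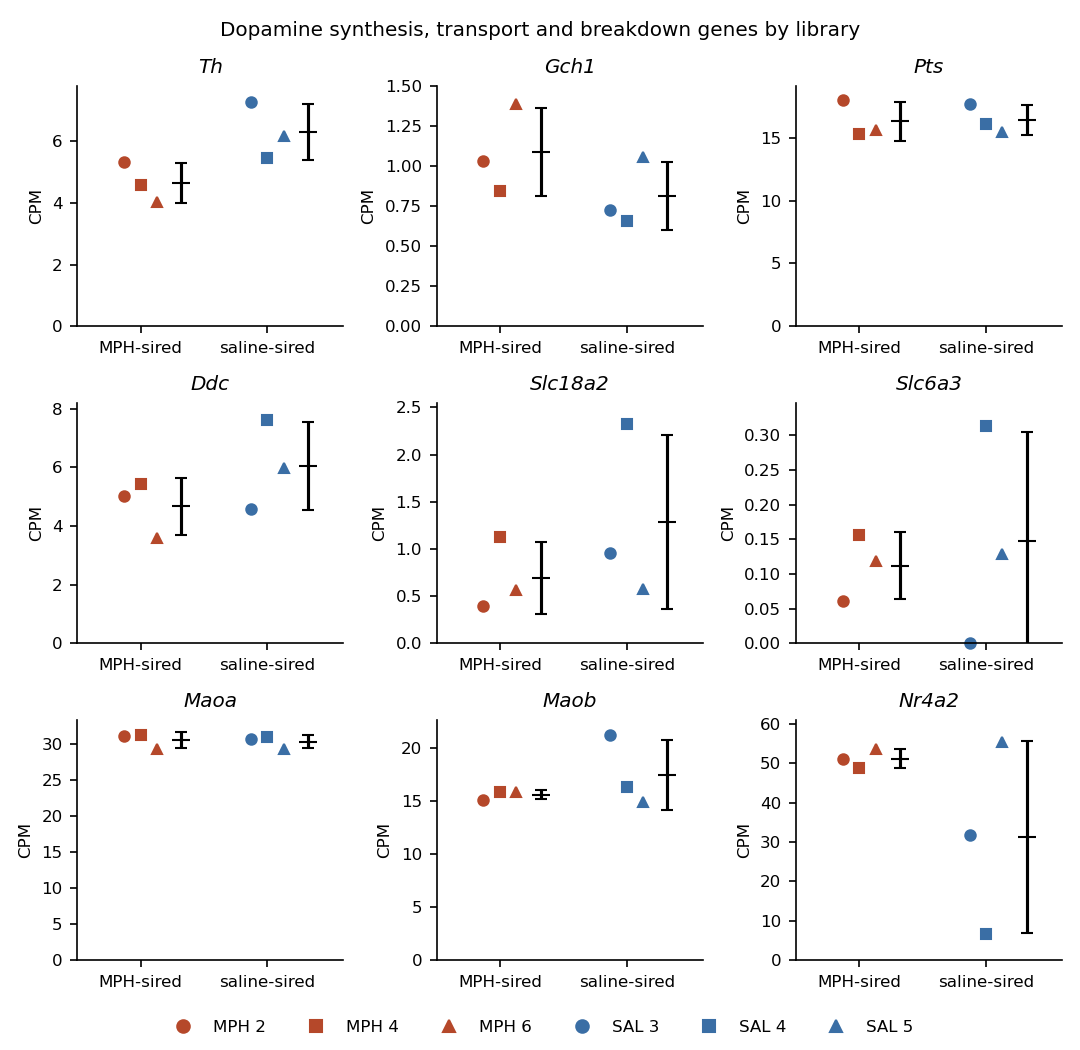
Level of each of the 9 genes in every library, in CPM on a linear axis from 0, with the 3 methylphenidate-sired (MPH) libraries left of the 3 saline-sired (SAL) libraries; the bar beside each group is its mean and SD (for Slc6a3 in saline-sired libraries the bar is cut off at 0). Th is the single gene whose groups do not overlap, and Nr4a2 in saline-sired libraries spans 6.63 to 55.3 CPM.

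The cofactor genes had fold changes of opposite sign and overlapping groups. Gch1 (Gene ID 14528, chromosome 14, 47153895 to 47189413, minus strand) encodes GTP cyclohydrolase, the first and limiting enzyme of tetrahydrobiopterin synthesis. It had 34, 27 and 47 counts (1.03, 0.845 and 1.39 CPM) in methylphenidate-sired libraries 2, 4 and 6, against 29, 21 and 33 counts (0.730, 0.659 and 1.06 CPM) in saline-sired libraries 3, 4 and 5. Saline-sired library 5 was above 2 of the methylphenidate-sired libraries. Gch1 had a log2 fold change of 0.42 (SE 0.34, 95% interval -0.35 to 1.19, edgeR adjusted p = 0.742). Leaving out methylphenidate-sired library 6 gave 0.21, leaving out saline-sired library 5 gave 0.66, and cortical marker level as covariate gave -0.02. Pts (Gene ID 19286, chromosome 9, 50521617 to 50528716, minus strand), which encodes the next enzyme of the same route, was at 18.0, 15.2 and 15.6 CPM in methylphenidate-sired libraries and 17.7, 16.0 and 15.4 CPM in saline-sired libraries. The libraries were fully intermingled for Pts, with a log2 fold change near 0 (-0.01, SE 0.11, 95% interval -0.25 to 0.23, edgeR adjusted p = 0.987).

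Among the 6 other genes of tetrahydrobiopterin supply, 5 passed the filter on low counts, none passed the test, none had an unadjusted p under 0.05, and the median log2 fold change was -0.11, against -0.01 over all genes tested. Qdpr, which regenerates the cofactor after each hydroxylation, was at 103, 114 and 164 CPM in methylphenidate-sired libraries 2, 4 and 6 against 137, 185 and 115 CPM in saline-sired libraries 3, 4 and 5. Within each group its order was that of the summed oligodendrocyte markers, which were 7805, 10207 and 10570 CPM in methylphenidate-sired libraries, and 10025, 14430 and 7671 CPM in saline-sired libraries. The part of oligodendrocyte content in Qdpr was not tested.

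Both transporters were scarce. Slc18a2 (Gene ID 214084, chromosome 19, 59260878 to 59296012, plus strand) had 13, 36 and 19 counts in methylphenidate-sired libraries 2, 4 and 6, against 38, 74 and 18 counts in saline-sired libraries 3, 4 and 5. These were 0.396, 1.13 and 0.562 CPM in methylphenidate-sired libraries and 0.956, 2.32 and 0.577 CPM in saline-sired libraries. Library 4 was the highest of each group, and saline-sired library 5 lay at the level of methylphenidate-sired library 6. The fold change of Slc18a2 on the log2 scale was -0.88 (SE 0.58, 95% interval -2.21 to 0.44, edgeR adjusted p = 0.684), and it was -0.15 without saline-sired library 4. It turned positive with cortical marker level as covariate (0.60) and when saline-sired libraries 3 and 4 were both left out (0.26). Its exons overlap those of the antisense gene Gm29261 on the opposite strand over 111 bases (2.12% of its exon length), and the sources used here do not say whether counting used strand.

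Slc6a3 (Gene ID 13162, chromosome 13, 73536128 to 73578672, plus strand) was below the filter. It had 2, 5 and 4 counts in methylphenidate-sired libraries 2, 4 and 6, against 0, 10 and 4 counts in saline-sired libraries 3, 4 and 5. By exact Poisson 95% intervals, which cover counting error only, the 0 in saline-sired library 3 allows up to 0.0928 CPM. The 10 counts of saline-sired library 4 correspond to 0.314 CPM (interval 0.151 to 0.577). The mean difference on log2(CPM + 0.5) was -0.06, with p = 0.8 in a two-sided exact permutation test whose smallest possible p is 0.1 with 3 libraries against 3. At this depth no difference between the groups was detectable.

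Ddc, Slc18a2 and Slc6a3 all had their highest level in library 4 of either group, the libraries that hold the Y-linked transcripts, while Th did not. Slc18a2 made up 6.92%, 19.8% and 12.3% of the summed Slc18a2 and Th counts in methylphenidate-sired libraries 2, 4 and 6, against 11.7%, 29.8% and 8.57% in saline-sired libraries 3, 4 and 5. The exact binomial 95% interval in saline-sired library 4 (24.2% to 36.0%) lay above those of methylphenidate-sired libraries 2 (3.73% to 11.5%) and 6 (7.54% to 18.5%) and of saline-sired libraries 3 (8.38% to 15.7%) and 5 (5.16% to 13.2%), and overlapped that of methylphenidate-sired library 4 (14.3% to 26.3%). The libraries thus differed in this share by more than counting error within each group. With 1 such library in each group, the part of sex was not tested.

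**Figure D2:**
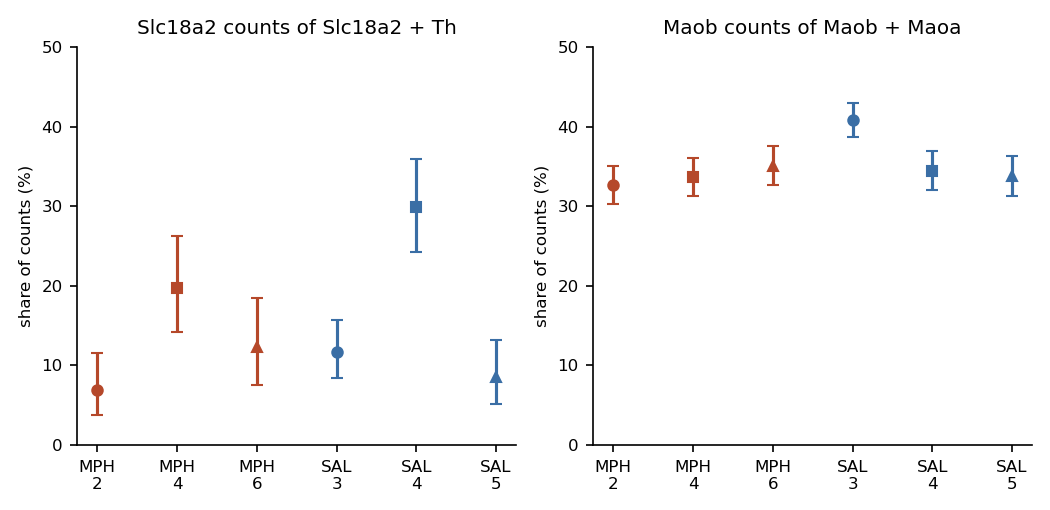
Share of Slc18a2 in the summed Slc18a2 and Th counts (left) and of Maob in the summed Maob and Maoa counts (right), in percent, for each methylphenidate-sired (MPH) and saline-sired (SAL) library, with exact binomial 95% intervals that cover counting error only. Library 4 has the highest Slc18a2 share in each group, and saline-sired library 3 the highest Maob share at 40.8%.

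Of the 7 other monoamine transporters, 2 passed the filter, neither passed the test, and 2 were at 0 in every library, among them the noradrenaline transporter Slc6a2. The organic cation transporter Slc22a3 was at 8.98, 5.73 and 6.60 CPM in methylphenidate-sired libraries 2, 4 and 6, against 9.94, 8.85 and 8.24 CPM in saline-sired libraries 3, 4 and 5 (log2 fold change -0.34, SE 0.18, edgeR adjusted p = 0.613). The plasma membrane monoamine transporter Slc29a4 was at 8.65, 11.3 and 9.14 CPM in methylphenidate-sired libraries and 20.4, 9.55 and 6.96 CPM in saline-sired libraries. Saline-sired library 3, highest for Slc29a4, was also highest for choroid plexus markers, whose summed level over 13 genes was 41.1 to 92.9 CPM in methylphenidate-sired libraries and 2163, 388 and 35.4 CPM in saline-sired libraries 3, 4 and 5. The part of choroid plexus tissue in Slc29a4 was not tested.

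Of the monoamine oxidases, Maoa (Gene ID 17161, chromosome X, 16619698 to 16687812, plus strand) was the most even of the 9 genes. It was at 31.1, 31.3 and 29.4 CPM in methylphenidate-sired libraries 2, 4 and 6, against 30.8, 31.0 and 29.3 CPM in saline-sired libraries 3, 4 and 5. All 6 libraries lay within 1.07-fold of each other, and the 95% interval of the log2 fold change ran from -0.15 to 0.17 (estimate 0.01, SE 0.07, edgeR adjusted p = 0.982). A stretch of 253 or 254 bases in its transcript is shared at 95% identity or more with transcripts of 5 other genes, so a small part of its counts is uncertain.

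Maob (Gene ID 109731, chromosome X, 16709281 to 16817366, minus strand), the isoform known from astrocytes and serotonergic neurons, was at 15.1, 15.8 and 15.9 CPM in methylphenidate-sired libraries 2, 4 and 6. In saline-sired libraries 3, 4 and 5 its level was 21.2, 16.3 and 14.9 CPM. Saline-sired library 3 stood above the other 5 libraries, which lay between 14.9 and 16.3 CPM. The log2 fold change was -0.17 (SE 0.14, 95% interval -0.48 to 0.14, edgeR adjusted p = 0.748), and without saline-sired library 3 it was -0.006. With the choroid plexus marker level as a covariate, an alternative chosen after seeing the data, it was 0.04. The mean centred log2 CPM of 12 astrocyte markers was -0.10, 0.03 and 0.01 in methylphenidate-sired libraries, and -0.07, 0.20 and -0.07 in saline-sired libraries 3, 4 and 5, and their summed level was 4443 to 4832 CPM in methylphenidate-sired libraries and 4105, 4771 and 4638 CPM in saline-sired libraries. The part of astrocyte content in Maob was not tested.

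Maob made up 32.7%, 33.6% and 35.1% of the summed Maob and Maoa counts in methylphenidate-sired libraries 2, 4 and 6, against 40.8%, 34.4% and 33.7% in saline-sired libraries 3, 4 and 5. The exact binomial 95% interval of saline-sired library 3 (38.7% to 43.0%) lay above the intervals of the other 5 libraries. In those 5 the share stayed between 32.7% and 35.1%.

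Among 10 other genes of catecholamine breakdown and conjugation, none passed the test, 5 fold changes were positive and 5 negative, and the median log2 fold change was 0.002. Aldh2, an aldehyde dehydrogenase that clears the product of monoamine oxidation, had overlapping groups (log2 fold change -0.20, SE 0.11, edgeR adjusted p = 0.619).

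Nr4a2 (Gene ID 18227, chromosome 2, 57106830 to 57124003, minus strand) encodes NURR1, a nuclear receptor that midbrain dopamine neurons need for their identity and that cortical, claustral and subicular neurons also make. It had 1675, 1556 and 1811 counts in methylphenidate-sired libraries 2, 4 and 6, against 1264, 211 and 1723 counts in saline-sired libraries 3, 4 and 5. At 51.0, 48.7 and 53.6 CPM the methylphenidate-sired libraries were close together, while the saline-sired libraries were at 31.8, 6.63 and 55.3 CPM. Saline-sired library 5 was the highest of all 6 and saline-sired library 4 the lowest. The log2 fold change was 0.71 (SE 0.55, 95% interval -0.55 to 1.97, edgeR adjusted p = 0.733). Leaving out saline-sired library 4 gave 0.23 and leaving out saline-sired library 5 gave 1.41.

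Nr4a2 shared its low value in saline-sired library 4 with markers of cortical excitatory neurons. The mean centred log2 CPM of 14 such markers was 0.32, 0.34 and 0.52 in methylphenidate-sired libraries 2, 4 and 6, and -0.31, -1.07 and 0.20 in saline-sired libraries 3, 4 and 5. Slc17a7, a glutamate transporter of cortical neurons, was at 540, 570 and 616 CPM in methylphenidate-sired libraries and 337, 163 and 438 CPM in saline-sired libraries. Saline-sired library 4 was thus lowest for the cortical markers too, but Nr4a2 was lower there than in step with Slc17a7: it had 9.45, 8.54 and 8.70 counts per 100 of Slc17a7 in methylphenidate-sired libraries, and 9.44, 4.08 and 12.6 in saline-sired libraries 3, 4 and 5. Of 12 claustrum and layer 6b markers, 11 were in the table and none passed the test. Their mean centred log2 CPM was -0.009, 0.11 and 0.09 in methylphenidate-sired libraries, and 0.06, -0.17 and -0.09 in saline-sired libraries 3, 4 and 5. In saline-sired library 4 the genes of this list did not move together: Ntng2 had its lowest value there (5.78 CPM) and Trh its highest (4.05 CPM).

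With cortical marker level as covariate, the log2 fold change of Nr4a2 was -0.69 (edgeR unadjusted p = 0.0128, adjusted p = 0.987), the opposite direction to the fit without it. That marker level was itself higher in every methylphenidate-sired library than in any saline-sired one. Its part and that of group therefore cannot be cleanly separated in this fit. The log2 fold change of Nr4a2 was -0.11 when saline-sired libraries 3 and 4 were both left out. Of the cortical markers none passed the edgeR test, 10 of 14 had an unadjusted p under 0.05 (9.02% of all genes tested), and 10 had non-overlapping groups (14.8% of all genes tested, in either direction), all higher in methylphenidate-sired libraries. Nr4a2 can also be induced by neuronal activity, like its relatives Nr4a1 and Nr4a3. All 15 NR4A and immediate early genes had positive fold changes with a median of 0.66, and edgeR called 0 of them, while 5 had an unadjusted p under 0.05. Their mean centred log2 CPM was 0.30, 0.81 and -0.14 in methylphenidate-sired libraries, and -0.76, 0.27 and -0.48 in saline-sired libraries 3, 4 and 5. The part of neuronal activity in the level of Nr4a2 was not tested.

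**Figure D3:**
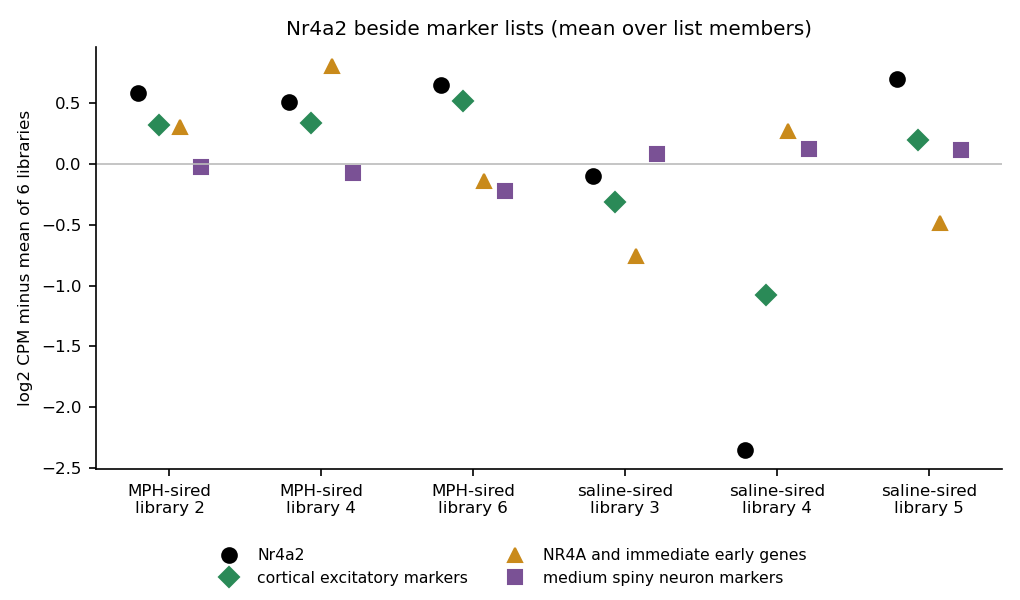
Centred log2 CPM of Nr4a2 and mean centred log2 CPM of 3 marker lists in each library, methylphenidate-sired (MPH) libraries left of saline-sired ones; each point is 1 library and 0 is the mean of the 6 libraries. Saline-sired library 4 has the lowest Nr4a2 (-2.35) and the lowest cortical marker level (-1.07).

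The genes whose pattern over the 6 libraries was nearest to Nr4a2, by root mean square difference of centred log2 CPM among 13778 genes, were Smoc2 (0.11), Npbwr1 (0.14) and Bdnf (0.23). All 3 also had their lowest value in saline-sired library 4: Smoc2 was at 4.82 to 6.18 CPM in methylphenidate-sired libraries and 3.22, 0.597 and 4.94 CPM in saline-sired libraries 3, 4 and 5. The nearest to Th were Atraid (0.06), Phykpl (0.07) and Fam117a (0.08), none of them a dopamine neuron marker. Like Th, Atraid was highest in saline-sired library 3 (39.0 CPM) and lowest in methylphenidate-sired library 6 (21.4 CPM).

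Among the markers of midbrain dopamine neurons some were at or near 0 and others were not. Pitx3, Foxa1 and Foxa2, transcription factors of these neurons, had no count in any library. By exact Poisson intervals this allows up to 0.0928 CPM in saline-sired library 3, the lowest limit, and up to 0.118 CPM in saline-sired library 5, the highest. Chrna6, a nicotinic receptor subunit of dopamine terminals, had 2, 0 and 5 counts in methylphenidate-sired libraries 2, 4 and 6 and 0, 5 and 2 counts in saline-sired libraries 3, 4 and 5. Lmx1a, a factor of midbrain dopamine neurons that choroid plexus also makes, had 0 counts in all 3 methylphenidate-sired libraries, against 28, 8 and 4 counts in saline-sired libraries 3, 4 and 5. Its order in the saline-sired group was that of the choroid plexus markers, whose part in it was not tested. Markers well above 0 included the aldehyde dehydrogenase Aldh1a1 (15.3 to 27.3 CPM in methylphenidate-sired libraries and 15.0 to 18.7 CPM in saline-sired libraries) and the receptor tyrosine kinase Ret (4.29 to 10.3 CPM in methylphenidate-sired libraries and 3.62 to 9.80 CPM in saline-sired libraries). Of all 15 dopamine neuron markers outside the 9 genes, 8 passed the filter, none passed the test, 4 fold changes were positive and 4 negative, and the median was -0.03.

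Markers of other monoamine neurons were likewise mixed. Of 6 noradrenergic and adrenergic markers 4 were at 0 in every library, and Dbh, which turns dopamine into noradrenaline, had 0, 0 and 4 counts in methylphenidate-sired libraries and 5, 0 and 0 counts in saline-sired libraries. Pnmt, which makes adrenaline, had 0, 25 and 6 counts in methylphenidate-sired libraries and 20, 10 and 7 counts in saline-sired libraries. The serotonin transporter Slc6a4 had 0, 5 and 0 counts in methylphenidate-sired libraries and 3, 0 and 0 counts in saline-sired libraries. Tph2, the tryptophan hydroxylase of serotonergic neurons, had 28, 18 and 32 counts in methylphenidate-sired libraries and 16, 17 and 23 counts in saline-sired libraries, with overlapping CPM values. Of 7 serotonergic markers 4 passed the filter, Gata2 among them at 2.02 to 4.05 CPM over the 6 libraries, and none passed the test.

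Levels between genes were set side by side as CPM per kilobase of exon (GENCODE gene models), averaged over the 6 libraries. Nr4a2 was at 10.1 ± 4.66, Maoa at 7.31 ± 0.214 and Maob at 5.93 ± 0.837 CPM per kilobase (SD over 6 libraries). Pts followed at 2.68 ± 0.199, Th at 2.31 ± 0.484 and Ddc at 1.20 ± 0.305 CPM per kilobase. Slc18a2 at 0.190 ± 0.135, Gch1 at 0.152 ± 0.0427 and Slc6a3 at 0.0375 ± 0.0307 CPM per kilobase were the lowest. Neighbours in this order whose ranges of mean and SD overlapped were Nr4a2 with Maoa, Pts with Th, and Slc18a2 with Gch1. The gap between Th and Ddc depended on the length used: by longest transcript they were at 2.80 and 2.66 CPM per kilobase. For scale, the medium spiny neuron genes Ppp1r1b (DARPP-32) and Drd1, a dopamine receptor, were at 470 to 648 and 57.7 to 79.0 CPM per kilobase. Th RNA was thus far lower per length than RNA of these genes, and also below that of both monoamine oxidases. Protein levels were not measured.

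Counted together, 8 of the 9 genes passed the filter on low counts and 0 passed the test at an adjusted p under 0.05 (edgeR), with 1 at an unadjusted p under 0.05. DESeq2 and limma-voom called 0 of them as well. Over all genes, 4 of 17874 passed, so a count of 0 among 8 does not set these genes apart. The log2 fold changes were positive for 3 and negative for 5, with a median of -0.09, against -0.01 over all genes tested. The 95% intervals were narrow for Maoa, Pts and Maob, within 0.5 on the log2 scale on either side of 0, and wide for Slc18a2 and Nr4a2.

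**Figure D4:**
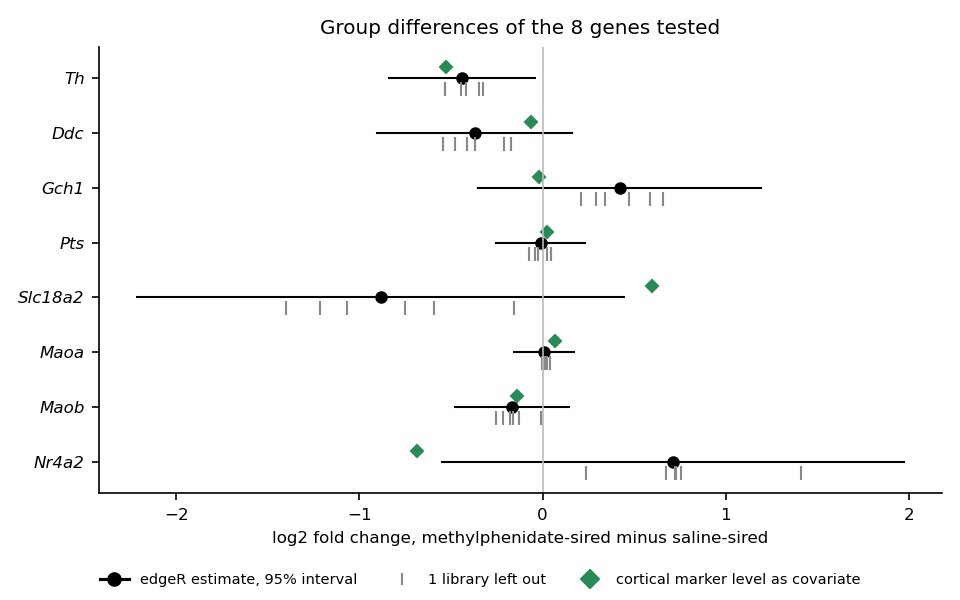
Log2 fold change (methylphenidate-sired minus saline-sired) of the 8 genes tested: black points and lines are the edgeR estimate and its 95% interval, grey ticks the estimate with 1 library left out, and green diamonds the estimate with cortical marker level as covariate. The interval of Th (-0.84 to -0.04) is the single one that does not include 0, and the diamond of Nr4a2 lies at -0.69.

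The remaining lists of the pathway held no gene past the test. Of 8 other genes of aromatic amine synthesis 6 passed the filter and none passed the test, with 1 positive and 5 negative fold changes. Hdc, which makes histamine, was at 0.822, 0.908 and 1.04 CPM in methylphenidate-sired libraries 2, 4 and 6, against 1.74, 1.88 and 0.962 CPM in saline-sired libraries 3, 4 and 5. Tph1, a tryptophan hydroxylase, had 5 to 7 counts in methylphenidate-sired libraries and 10 to 13 in saline-sired libraries, which do not overlap but are few (edgeR adjusted p = 0.562). Of 16 kinases, phosphatases, 14-3-3 proteins and other regulators of tyrosine hydroxylase, 13 fold changes were positive and 3 negative, with a median of 0.09. None passed the test, and 4 had an unadjusted edgeR p under 0.05 (9.02% of all genes tested). In 5 the groups did not overlap (14.8% of all genes tested, in either direction), all higher in methylphenidate-sired libraries. Ywhah and Ywhag were among these 5. The 14-3-3 gene Ywhah was at 486, 488 and 526 CPM in methylphenidate-sired libraries and 408, 326 and 447 CPM in saline-sired libraries (log2 fold change 0.34, SE 0.11, edgeR adjusted p = 0.470). Ywhag, of the same family, was at 797, 814 and 869 CPM in methylphenidate-sired libraries and 745, 622 and 726 CPM in saline-sired libraries (log2 fold change 0.24, SE 0.08, edgeR adjusted p = 0.470). Both were lowest in saline-sired library 4, the library lowest in cortical markers, whose part in these differences was not tested.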

How the data were processed

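Striatal RNA of 6 mice, 3 per group, was sequenced. Per the submitters' processing notes, bcl2fastq 2.20.0, Trimmomatic, HISAT2 2.1.0, StringTie 2.1.3b and build mm10 were used; the sources used here give no settings, strandedness or handling of multiply mapped reads. Whole-number read counts per gene, not normalized, come from the authors' deposited table, and these alone were used. A further 12 columns of per-sample values were not used. Column names give the group and an animal number that does not follow the labels' numbering, so each column was tied to its group only. No sex covariate was fitted, because the labels do not say which column is the male, and expression values were not used to assign it.

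Counts were tested with edgeR 4.0.16 (R 4.3.3): TMM scaling, filterByExpr, the quasi-likelihood F test on all 6 libraries, and Benjamini-Hochberg adjustment over 17874 genes at a threshold of 0.05. CPM values use TMM-scaled library sizes, with 31360042 to 38844724 counts per library. Upper limits for a count of 0 are those of exact Poisson 95% intervals. Intervals from counts cover counting error only, and they take the counts as whole reads; the sources used here do not say whether the counts are reads or rounded estimates. The 1 gene below the filter had an exact permutation test on log2(CPM + 0.5). A list's level per library is the average over its genes of log2 CPM centred on the libraries' mean. Alternatives were DESeq2 1.42.0 and its size factors, library totals, limma-voom (limma 3.58.1), other filters, marker levels as covariates, and leaving libraries out. The edgeR code was tested on simulated counts. Exon lengths and overlaps came from GENCODE vM21, which matched all 9 genes, near-identical transcripts (at least 95% identity over 200 bases) from blastn 2.17.0, and promoters from RefSeq.

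The 9 genes and all lists were chosen with earlier results of these data known. The text names the 9 genes, of each other list it describes the 2 genes of lowest p that passed the filter or some of them, defining markers at or near 0, and the 3 genes nearest in pattern to Th and to Nr4a2 at log2 CPM averaging at least 1. Slc17a7, Ppp1r1b, Drd1, Aldh1a1, Ret, Gata2, Slc18a3, Slc5a7, Ntng2 and Trh were named after their values were seen.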

Additional observations from a re-analysis of the deposited data

How the results depend on the processing

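No paired analysis was possible because the columns carry numbers other than the labels' replicate numbers. None of the 9 genes passed the test in any of the 15 alternatives, and of 119 pairs of gene and alternative 103 kept the direction of the fold change and 16 turned it; Slc18a2 was not kept by the filter of 1 CPM in 3 libraries. The choroid plexus covariate and leaving out saline-sired libraries 3 and 4 together were chosen after seeing the data. Log2 fold changes turned as follows, and the cause was not tested. With cortical marker level as covariate, partly confounded with group, they were 0.60 for Slc18a2, -0.022 for Gch1, 0.022 for Pts and -0.69 for Nr4a2. With the choroid plexus level as a covariate they were 0.042 for Maob and 0.049 for Pts. Without saline-sired libraries 3 and 4 they were 0.26 for Slc18a2, 0.061 for Maob, 0.077 for Pts and -0.11 for Nr4a2. Scaling by library totals gave -0.013 for Maoa, and no filter gave 0.00029 for Pts. With 1 library left out in turn, Maoa ran from -0.0017 (without saline-sired library 5) to 0.040, and Pts from -0.074 to 0.047 (positive when methylphenidate-sired library 4 or 6, or saline-sired library 3, was left out). The ranges of the others were -0.53 to -0.33 for Th, -0.54 to -0.17 for Ddc, -1.40 to -0.15 for Slc18a2, -0.25 to -0.006 for Maob, 0.21 to 0.66 for Gch1 and 0.23 to 1.41 for Nr4a2.

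Over all genes, 4 passed the edgeR test, 0 higher and 4 lower (906 and 706 at an unadjusted p under 0.05). DESeq2 called 173, 136 higher and 37 lower, among 15095 genes with an adjusted p; Slc18a2 and Gch1 were among the 2779 without one. The cortical covariate left 1, lower, and the choroid plexus covariate left 2, both lower. Without saline-sired libraries 3 and 4, edgeR called 0 genes, 0 lower, with 958 at an unadjusted p under 0.05. With 1 library left out, 1 to 4 genes passed, 0 to 1 higher and 1 to 4 lower: 1 without methylphenidate-sired library 6, and 1 higher and 2 lower without methylphenidate-sired library 2 or saline-sired library 5. Lengths of the longest transcript in place of all exons gave levels of 6.86 for Maob, 3.88 for Pts, 2.80 for Th, 2.66 for Ddc and 0.272 CPM per kilobase for Gch1, which then stood above Slc18a2 at 0.225. Depth limits Slc6a3, Slc18a2 and Gch1, whose counts were at most 74 in any library, and 3 libraries per group limit all of them.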

Other observations

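The cholinergic interneurons of the striatum, which dopamine acts on, are marked by Chat, the enzyme that makes acetylcholine. The log2 fold change of Chat was -0.33 (SE 0.12) with non-overlapping groups, lower in methylphenidate-sired libraries, as in 7.01% of all genes tested. Those of the other cholinergic markers listed were -0.03 for Slc18a3 (SE 0.13) and -0.12 for Slc5a7 (SE 0.12), both with overlapping groups. Cck, a neuropeptide gene that cortical neurons also express, had the lowest p of the list, with a log2 fold change of 0.80 (SE 0.29). None of the 15 striatal interneuron markers was called by edgeR, while 3 had an unadjusted p under 0.05 (9.02% of all genes tested). Slc10a4, a vesicular transporter found in both cholinergic and monoamine neurons, was at 11.5, 14.0 and 15.1 CPM in methylphenidate-sired libraries 2, 4 and 6, against 15.2, 17.8 and 16.3 CPM in saline-sired libraries 3, 4 and 5. The groups did not overlap, but methylphenidate-sired library 6 and saline-sired library 3 were within 0.1 CPM of each other (log2 fold change -0.28, SE 0.13, edgeR adjusted p = 0.562).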
